A study of Homo sapiens with 6 samples.

Results

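ESR1 and PGR encode estrogen receptor alpha and the progesterone receptor, the hormone receptors by which T47D cells are classed as luminal breast cancer cells. They were taken by gene name as 2 of the 58735 rows of the deposited gene count table. Both are ligand-activated transcription factors of the steroid receptor family. Held by chaperones until hormone binds, they then attach to DNA as dimers and recruit coactivators or corepressors. Estrogen-bound receptor alpha switches on PGR itself in breast epithelium, which is why progesterone receptor is read in breast tumours as a sign of working estrogen receptor. The progesterone receptor is made as a long and a short form from different start sites of the same gene, and gene-level counts sum them.

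The 6 libraries came from T47D, a luminal cell line established from human breast cancer. The 3 control libraries are titled CK and the 3 libraries of the other group CQ, which the design text describes as treated without naming the agent. From the series title and the protocol it is inferred to be fine particulate matter (PM2.5), with RNA taken at 48 h, and "exposed" is used in that sense. The protocol is worded alike for both groups, so what the controls received is unclear, and neither the dose nor the hormone content of the medium is stated in the labels. Replicates are described as biological, but nothing says that they were separate cultures, so p-values measure the spread between these samples only.

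Libraries held 30970218 to 36878525 counts, and mitochondrial transcripts took 8.98% to 9.65% of them in controls and 8.97% to 9.71% after exposure. The line matched its label: the luminal markers EPCAM, KRT8, KRT18, KRT19, CDH1, GATA3 and FOXA1 were all tested and summed to 18153 to 20209 CPM (read counts scaled to a common library size, with a factor for composition) in controls. After exposure that sum was 7736 to 9790 CPM. Of the 7 markers, 4 passed as lower: KRT8, KRT18 and KRT19, which make up most of the sum, and FOXA1. For comparison, 22.1% of all tested genes passed as lower and 21.8% as higher. EPCAM was at 169 ± 11.6 and 172 ± 1.54 CPM (SD, n = 3) and did not pass. The basal markers KRT5, KRT14, KRT17 and TP63 were below the filter on low counts, and all 6 basal markers summed to 4.81 to 5.41 CPM in controls and 5.91 to 6.04 CPM after exposure. The 5 fibroblast markers summed to 58.9 to 67.1 and 69.7 to 72.7 CPM, nearly all of it COL1A1, and 1 of them, COL1A2, passed as higher on 19 to 23 control and 36 to 41 exposed counts. The 5 immune markers summed to 0.878 to 1.69 and 1.20 to 1.62 CPM, and the 4 endothelial markers to 0.241 to 0.412 and 0 to 0.236 CPM, with KDR at 0 in every library. What part, if any, these shifts have in the receptor values was not tested.

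ESR1 (ENSG00000091831) lies on chromosome 6 from 151656691 to 152129619 on the plus strand of GRCh38, a span of 472.9 kb. GENCODE 29 gives it 15 transcripts, 11 of them coding, with 13 different starts. PGR (ENSG00000082175) lies on chromosome 11 from 101029624 to 101130524 on the minus strand and spans 100.9 kb, with 11 transcripts, 7 starts and 6 coding transcripts. Their summed exons are similar in length, 13854 bases for ESR1 and 15404 bases for PGR. These lengths merge the exons of all annotated transcripts of a gene and need not be the length of any single message.

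Sequence before the RefSeq start of each gene is shown, since it holds the response element arms described next, and the windows of ESR1 and PGR had no searched motif in common. RefSeq's start of ESR1 on GRCh38.p14 is the most distal one, and its window of 250 bases (chr6:151656422-151656671, plus strand) ends 151.2 kb before the start codon of the principal ESR1 transcripts. Sequence upstream of the other ESR1 starts was not used here. The window is printed 5′ to 3′ with matches to CCAAT (either strand) and to TGTTCT, an arm of the progesterone and glucocorticoid response element, in capitals.
ESR1 distal window: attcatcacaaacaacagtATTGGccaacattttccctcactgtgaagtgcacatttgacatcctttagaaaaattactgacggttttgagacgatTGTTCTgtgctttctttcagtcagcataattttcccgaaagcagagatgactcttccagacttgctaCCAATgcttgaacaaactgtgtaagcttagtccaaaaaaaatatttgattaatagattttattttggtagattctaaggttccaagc

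From PGR, a stretch of 25 bases is shown (chr11:101129219-101129243, minus strand), which lies before the RefSeq start but inside the gene by the coordinates above, and in which an arm of the estrogen response element stands beside GC boxes. An arrangement of this kind in the PGR gene is known from studies of its estrogen response, with Sp1 as the factor that binds GC boxes. Capitals mark TGACC, the reverse complement of GGTCA, and 2 copies of CCGCCC, the reverse complement of GGGCGG.
PGR site: TGACCagcgCCGCCCtcccCCGCCC

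Over 35116 RefSeq windows of 250 bases, searched on both strands, GGTCA occurred in 32.6% and GGGCGG in 42.6%. TGACC followed after 4 bases by CCGCCC, as at the start of the PGR site, occurred in 22 windows (0.0626%), PGR among them. This pattern was copied from the PGR site, so PGR had to match it and the low share does not mark PGR out. A GGTCA within 10 bases of a GGGCGG, on any strand and in either order, occurred in 781 windows (2.22%). The PGR site had to match this looser pattern too, so its share does not mark PGR out either. CCAAT, in 11240 windows, and TGTTCT, in 12.4% of all windows, matched in the ESR1 window 2 times and 1 time and not in the PGR window. The full estrogen response element, GGTCA and TGACC with 3 bases between them, found in 14 windows, and GCGTG, the core bound by the aryl hydrocarbon receptor (AhR) and found in 32.2%, were in neither window. The same held for the AP-1 motif TGANTCA (6.57%), the TATA box TATAAA (10.7%), the GATA motif AGATAA (9.17%) and the forkhead motif TGTTTAC (2.98%). These are matches of letters in these windows and say nothing about binding.

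ESR1 transcripts fell to 40.3% of the control level. In control replicates 1 to 3 there were 6516, 5297 and 6284 ESR1 counts, or 175, 153 and 172 CPM. In exposed replicates 1 to 3 there were 2145, 2143 and 2489 counts, or 63.2, 69.2 and 69.0 CPM. All exposed libraries lay below all controls, as they did for 26.5% of all tested genes. The lowest control was 2.20 times the highest exposed library. The log2 fold change was -1.31 ± 0.08 (SE), a 2.48-fold fall with a 95% interval of 2.23 to 2.76 from that SE (edgeR quasi-likelihood test, Benjamini-Hochberg adjusted p = 6.7e-15, lower in 3 of 3 exposed libraries). Of all tested genes, 22.1% passed as lower by this test.

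PGR transcripts fell to 36.4% of the control level. Control replicates 1 to 3 held 32885, 24895 and 31563 PGR counts, or 881, 717 and 866 CPM. Exposed replicates 1 to 3 held 9586, 9793 and 10800 counts, or 282, 316 and 299 CPM. Again all exposed libraries lay below all controls, as in 26.5% of all tested genes, of which 22.1% passed as lower. The lowest control was 2.27 times the highest exposed library. The log2 fold change was -1.46 ± 0.08 (SE), a 2.74-fold fall with a 95% interval of 2.45 to 3.08 (edgeR quasi-likelihood test, Benjamini-Hochberg adjusted p = 3.6e-15, lower in 3 of 3 exposed libraries). Against a change of 1.5-fold rather than no change, both falls still passed (adjusted p = 8.8e-10 for ESR1 and 9.0e-11 for PGR, edgeR).

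**Figure D1:**
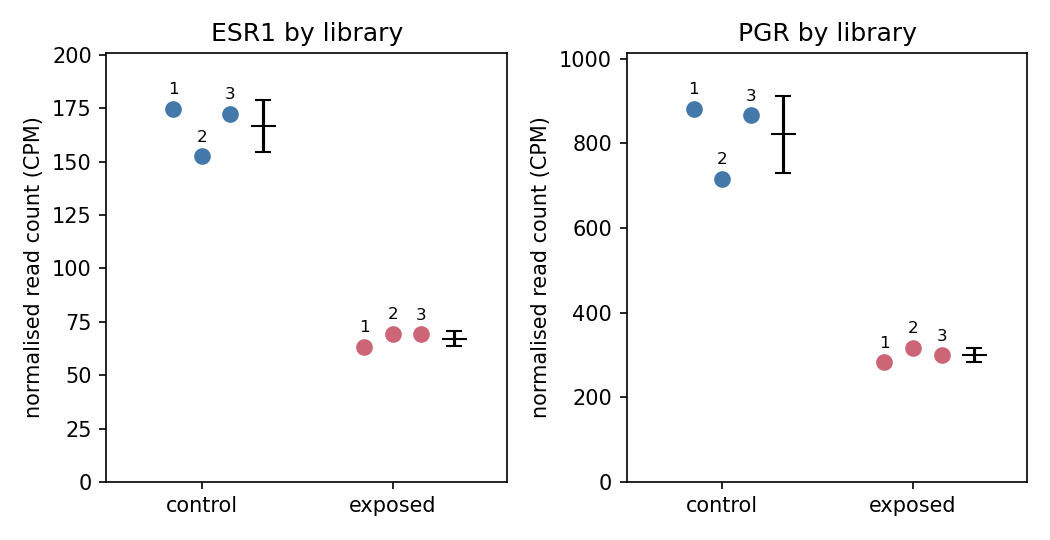
Normalised read count (CPM) of ESR1 and PGR in each library, numbered by replicate, with the mean and SD of the 3 libraries of a group as a bar beside the points. Exposed libraries sit at 63.2 to 69.2 CPM for ESR1 and 282 to 316 CPM for PGR, below every control, and control replicate 2 is the lowest control in both panels.

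Falls as such were common in these cells. Of 17337 genes tested, 43.9% passed, 22.1% as lower and 21.8% as higher, and of protein-coding genes 23.2% passed as lower. The groups did not overlap in 51.9% of tested genes, with all exposed libraries below all controls in 26.5%. The sizes of the receptor falls were less common: 3.65% of tested genes fell by as much as ESR1 on the log2 scale, and 2.74% by as much as PGR. Among the 1042 genes with a control CPM at least that of ESR1, 21 fell as far (2.02%), counting ESR1. Among the 112 genes at least as high as PGR, 3 did (2.68%), counting PGR. The median log2 fold change of all tested genes was -0.02. In bulk RNA, fewer cells with the transcript and less transcript per cell cannot be told apart.

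The spread between libraries was larger than counting error. The CV over control libraries was 7.31% for ESR1 and 11.1% for PGR, against 1.29% and 0.579% from counting alone, and over exposed libraries it was 5.13% and 5.70%. Control replicate 2 was low for both genes, 12.1% below the mean of the other controls for ESR1 and 17.9% for PGR. Of 4012 genes with a control mean of at least 50 CPM, 10.4% were as far below as ESR1 in that library and 2.02% as far below as PGR. This library also differed most from its group (chi-square per degree of freedom over genes of 14.9 and 11.5 against the other controls, which differed from each other by 7.11). Without it the log2 fold changes were -1.37 for ESR1 and -1.54 for PGR.

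The ratio of PGR to ESR1 asks whether both transcripts fell by the same factor, and library scaling cancels out of it. By replicate number, the controls held 5.05, 4.70 and 5.02 PGR counts per ESR1 count and the exposed libraries 4.47, 4.57 and 4.34. Each exposed ratio was below each control ratio, with 4.57 and 4.70 the closest. The log2 ratio changed by -0.14 ± 0.04 (SE; 95% interval -0.26 to -0.02, n = 3 per group), a change of -9.39% in PGR counts per ESR1 count. An exact two-sided permutation test gave p = 0.10, the smallest p that 3 against 3 allows, so this test could not pass a threshold of 0.05 and decides nothing.

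**Figure D2:**
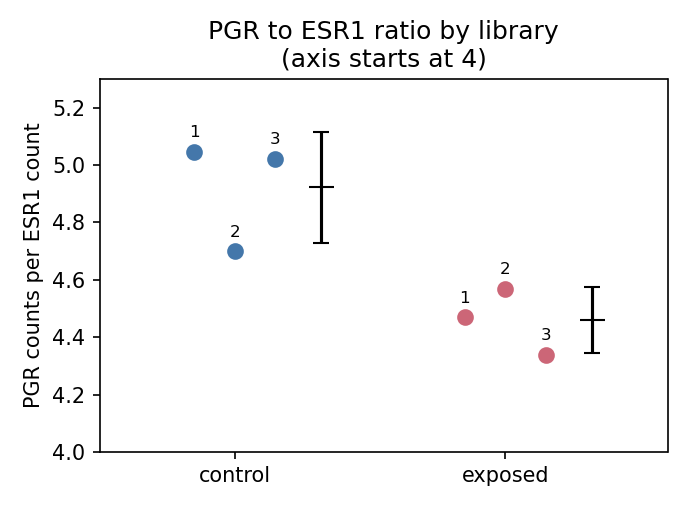
PGR counts per ESR1 count in each library, numbered by replicate, with the mean and SD of each group as a bar beside the points; the axis starts at 4. Control libraries lie at 4.70 to 5.05 and exposed libraries at 4.34 to 4.57.

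Levels per gene length place the receptors among 8 genes of their family (RPKM, CPM per kb of summed exon). PGR was at 53.3 ± 5.90 RPKM in controls (SD, n = 3), beside the orphan receptor ESRRA at 49.9 ± 4.05 RPKM, and these overlapped. ESR1 came next, with its highest control library at 12.6 RPKM, and of the others shown the glucocorticoid receptor NR3C1 followed at 0.761 ± 0.0719 RPKM. NR3C2, the mineralocorticoid receptor, was at 0.270 ± 0.0312 RPKM and ESR2, which encodes estrogen receptor beta, at 0.0747 ± 0.0143 RPKM. ESRRB, at 0.0459 ± 0.0331 RPKM, overlapped both ESR2 and ESRRG, the latter at 0.0238 ± 0.00603 RPKM. From ESRRA and PGR down to ESR2, the libraries of neighbours in that order did not overlap, apart from ESRRA and PGR themselves.

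After exposure ESRRA led with 53.7 ± 2.63 RPKM, and PGR stood below it at 19.4 ± 1.11 RPKM without overlap. ESR1 was at 4.85 ± 0.249 RPKM, still above NR3C1. NR3C1, at 0.913 ± 0.213 RPKM, stayed above NR3C2 at 0.573 ± 0.0854, again without overlap. Among 1156 tested genes that the table assigns to a transcription factor family, PGR ranked 17th by level per length in controls and 103rd after exposure, and ESR1 went from 149th to 354th. By RPKM lost, PGR ranked 4th of those genes and ESR1 28th. Of these transcription factor genes 20.2% passed as lower and 27.9% as higher, and their median log2 fold change was 0.05.

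**Figure D3:**
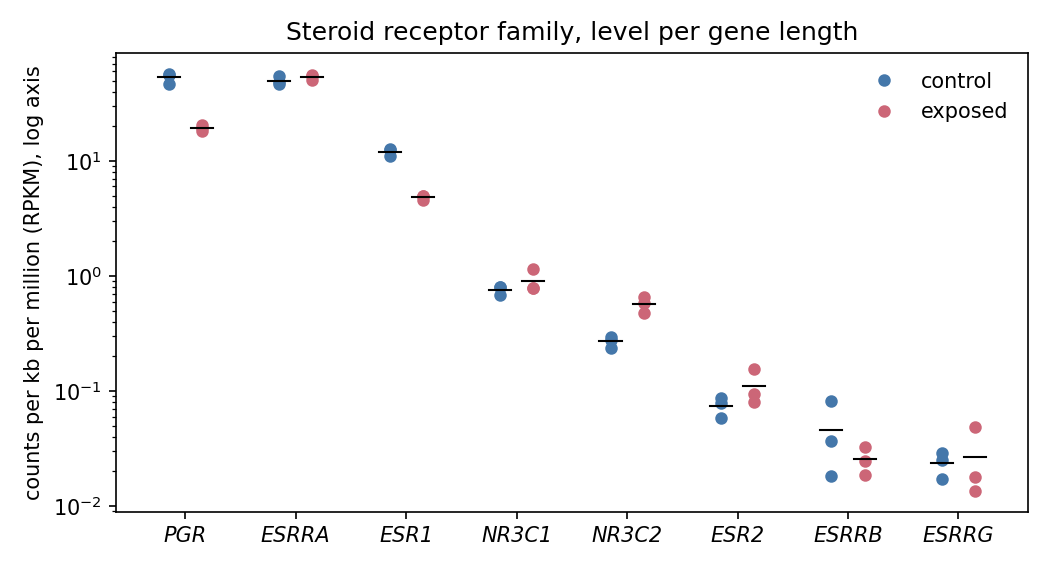
Level per gene length (RPKM, log axis) of 8 steroid receptor genes, ordered by control mean, with a point per library and a line at each group mean. PGR and ESR1 are lower in exposed libraries, ESRRA lies at 46.4 to 55.9 RPKM in all libraries, and NR3C2 is higher.

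Of 5 relatives tested and reported besides ESR1 and PGR, 1 passed, as higher, and the median log2 fold change was 0.26. That count is near the 21.8% of all tested genes that passed as higher, so it is no result about the family. The one that rose was NR3C2, with 54 to 73 counts in controls and 108 to 140 after exposure (1.08 ± 0.21, adjusted p = 1.2e-04). Without control replicate 2, ESRRA also passed as higher (0.17, adjusted p = 0.046). NR3C1 was at 0.26 ± 0.15 and ESR2 at 0.55 ± 0.38, and neither passed. ESR2 had 19 to 30 counts per control library and 27 to 45 per exposed library, and its ranges overlapped.

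Of 7 membrane receptors for the same hormones tested, none rose and 2 fell, with a median log2 fold change of -0.13. The share that fell is near the 22.1% of all tested genes, so it is no result about these receptors as a group. PAQR6, a progestin receptor of the membrane, was at -0.47 ± 0.11 (adjusted p = 0.0010). GPER1, the G protein-coupled estrogen receptor, was at -0.84 ± 0.32 on 47 to 57 control and 19 to 37 exposed counts (adjusted p = 0.033). Its call ended in DESeq2 (adjusted p = 0.084), with no filter on low counts (0.053) and without control replicate 1 (0.081), control replicate 2 (0.089), exposed replicate 1 (0.063) or exposed replicate 2 (0.12). PGRMC1, a progesterone-binding membrane protein, was at -0.17 ± 0.08 and did not pass.

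Among genes of estrogen supply and inactivation, 3 rose and 2 fell of 5 tested and reported, beside 21.8% and 22.1% of all tested genes. The list's median log2 fold change was 2.58, against -0.02 over all tested genes. The 2 that fell take part in making active estrogens. They were STS, the sulfatase that frees estrone from its sulfate, at -1.47 ± 0.20 (adjusted p = 2.5e-07), and HSD17B1, which makes estradiol, at -0.53 ± 0.12. The 3 that rose are the cytochromes P450 that hydroxylate estradiol and are induced through AhR. CYP1A1 went from 1.58 ± 0.329 to 2122 ± 95.9 CPM and CYP1B1 from 96.3 ± 2.13 to 577 ± 47.3 CPM (SD, n = 3 per group). CYP1A2 had 0 counts in each control and 38 to 69 after exposure, at least 19.4-fold higher against a floor of 3 counts per control library. With CYP1A2 at that bound the list's median was still 2.58. CYP19A1, which encodes aromatase, was at 0 in all libraries.

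AhR is a known partner in crosstalk with estrogen receptor alpha. All 4 tested genes of its pathway list rose, beside 21.8% of all tested genes. The list's median log2 fold change was 0.98, against -0.02 over all tested genes. Against a change of 1.5-fold, 2 of the 4 passed as higher. AHR itself was at 0.53 ± 0.12 (adjusted p = 8.7e-04), its dimer partner ARNT at 0.38 ± 0.08, and the feedback regulators TIPARP and AHRR at 1.44 ± 0.09 and 1.64 ± 0.17 (log2 fold change ± SE). Whether these changes have a part in the receptor falls was not tested.

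Of 17 factors tied to ESR1 transcription, 6 rose and 4 fell, with a median log2 fold change of 0.16. Of all tested genes 21.8% rose and 22.1% fell, and of transcription factor genes 27.9% and 20.2%. The share of the list that fell is near these values. The share that rose is above them, and whether it departs from them was not tested. FOXA1, which opens chromatin for estrogen receptor alpha, fell from 319 ± 13.3 to 264 ± 6.18 CPM (SD, n = 3), a log2 fold change of -0.27 ± 0.07 (adjusted p = 0.0026). GATA3, which acts at the ESR1 locus in luminal cells, stood at 613 ± 20.4 and 629 ± 17.5 CPM and did not pass (0.04 ± 0.08). TFAP2C, an activator of ESR1, fell by 0.46 and HDAC1, a histone deacetylase, by 0.52 on the log2 scale, while TFAP2A was at 0.52, SP1 at 0.53 and the hypoxia factor HIF1A at 0.62. All log2 fold changes named here were smaller in size than that of ESR1.

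Of 15 coactivators 4 rose and 3 fell, with a median log2 fold change of 0.05, and these shares are near the 21.8% and 22.1% of all tested genes. NCOA7 was at 0.84 ± 0.14 and PPARGC1B at 0.83 ± 0.13, and the RNA helicase DDX5, a coactivator of the receptor, at -0.72 ± 0.07. SRA1, known as a coactivator that acts as RNA, was at 0.34 ± 0.09. The 3 falls were DDX5, MED1 and DDX17, and fewer remained when single libraries were left out (1 of 3 without control replicate 1, control replicate 3, exposed replicate 1 or exposed replicate 3). Of 10 corepressors 1 rose and 5 fell, with a median log2 fold change of -0.21, beside the same 21.8% and 22.1%. NRIP1, a corepressor that estrogen itself induces, was at -0.85 ± 0.10 (adjusted p = 1.3e-08), SAFB2 at -0.54 ± 0.09 and BRCA1 at -0.51 ± 0.10, and the prohibitin PHB2 was at 0.33 ± 0.08. All coregulators named here passed edgeR's quasi-likelihood test.

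Of 16 genes listed as chaperones of steroid receptors or as factors that work with them, 9 fell and 2 rose, with a median log2 fold change of -0.26. Over all tested genes 22.1% fell and 21.8% rose, with a median of -0.02. DNAJA1, an HSP40 co-chaperone, was at -0.98 ± 0.09, the stress-inducible HSP90AA1 at -0.49 ± 0.08 and the immunophilin FKBP5 at -0.55 ± 0.08. STUB1, a ubiquitin ligase that marks chaperone clients, including the receptor, for breakdown, was at 0.44 ± 0.08 (log2 fold change ± SE, adjusted p = 1.4e-05). DESeq2 called 4 higher in place of 2.

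Lists of receptor targets were chosen with earlier results of these libraries known, so their direction is not independent evidence. Of 29 estrogen-induced genes tested, 25 fell and 2 rose, with a median log2 fold change of -0.75, against 22.1%, 21.8% and -0.02 over all tested genes. GREB1, a coactivator that estrogen induces strongly in breast cancer cells, had 25706 to 31134 counts in controls and 14641 to 15592 after exposure (-0.83 ± 0.08, adjusted p = 2.7e-10). CXCL12, MYC, KCNK5 and CCND1, named for the lowest adjusted p of the list, were at -2.54, -2.15, -2.51 and -1.34. Log2 fold changes over the whole list ran from -3.89 to 1.09. CXCL12 is a chemokine, MYC a transcription factor of growth, KCNK5 a potassium channel and CCND1 the gene of cyclin D1. Against a change of 1.5-fold, 13 of the list's genes passed as lower and 1 as higher. TFF1, a classical estrogen-induced gene, had 0 to 4 counts per library and was not tested. The 2 that rose were HSPB8 and TPD52L1, at 1.09 and 0.37.

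Progestin-induced genes moved both ways. Of 16 tested, 8 rose and 5 fell, with a median log2 fold change of 0.23, beside 21.8% and 22.1% of all tested genes. IRS2, an insulin receptor substrate, was at 2.34 ± 0.13, TSC22D3, a leucine zipper protein, at 1.35 ± 0.08 and the clock gene PER1 at 1.28 ± 0.09. The phosphatase DUSP1 rose from 6.85 ± 0.466 to 19.4 ± 1.67 CPM (SD, n = 3). FKBP5, counted in the chaperone list too, fell from 188 ± 19.6 to 128 ± 3.37 CPM. TSC22D3, PER1 and FKBP5 also respond to the glucocorticoid receptor, so the list is not specific to PGR. The number that fell was 3 without control replicate 2, since WNT4 and EGFR no longer passed (adjusted p = 0.24 and 0.084).

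**Figure D4:**
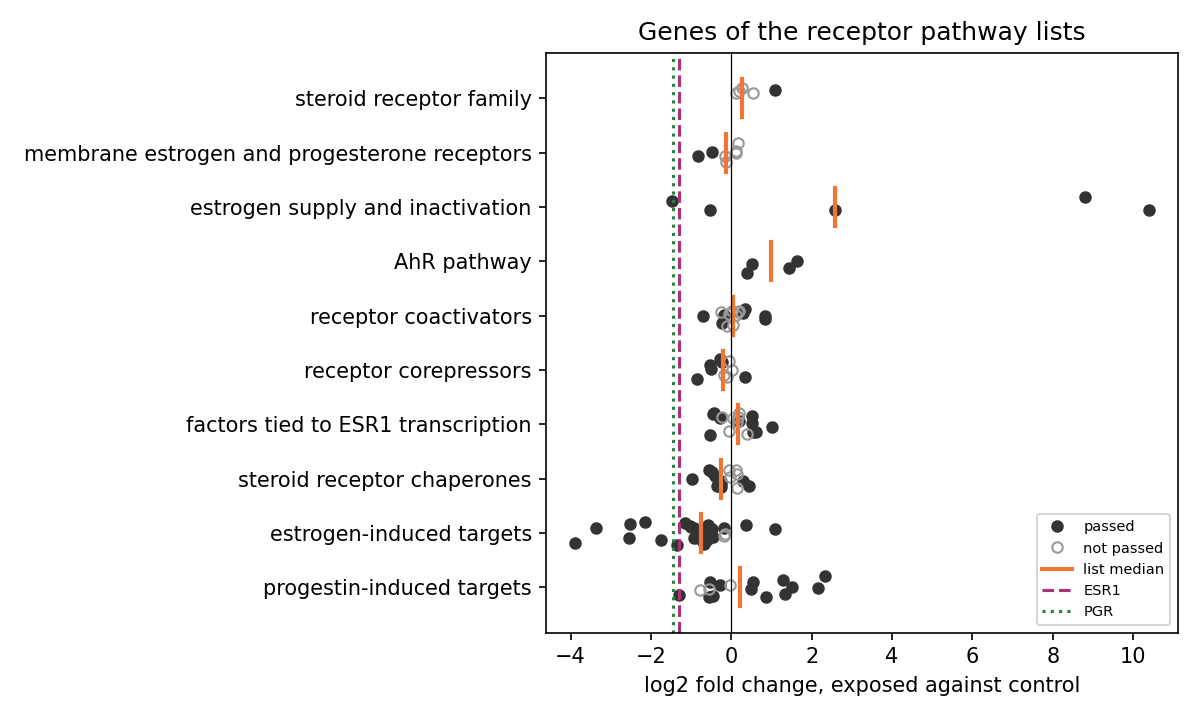
Log2 fold change (exposed against control) of each tested gene in 10 receptor pathway lists, filled where the gene passed the edgeR test, with the list median as an orange line and ESR1 (-1.31) and PGR (-1.46) as dashed and dotted lines. The estrogen-induced targets lie mostly below 0 (median -0.75), and the progestin-induced targets spread to both sides (median 0.23).

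Genes with the pattern most like the receptors were ranked by the root mean square distance of log2 CPM over the 6 libraries, each gene centred on its own mean, among 14194 genes at or above a mean of 1 CPM. RUNX1, a transcription factor of luminal cells, was closest to ESR1 at a distance of 0.0175, with 64.7 and 26.1 CPM in controls and exposed cells. CCND1 came next at 0.0455, followed by BRI3BP at 0.0567, SEMA3C, a semaphorin, at 0.0590 and PTGER3, a prostaglandin E receptor, at 0.0592. For PGR the closest were the mannosidase MAN1A1 at 0.0515, PTGER3 at 0.0552, the iron exporter SLC40A1 at 0.0744, ZDHHC11 at 0.0816 and ESR1 itself at 0.0817. PGR ranked 11th from ESR1. These distances mostly reflect the size of the difference between the groups, which any gene with a similar fold change shares.

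Within 1 Mb of ESR1 lie 39 other genes, of which 13 could be tested, 2 higher and 3 lower, with a median log2 fold change of -0.23. These shares are near those of all tested genes (21.8% and 22.1%). The nearest tested protein-coding gene upstream, CCDC170, ends 35.5 kb before ESR1 and stood at 8.59 ± 1.19 and 8.16 ± 0.488 CPM without passing. SYNE1 overlaps the end of ESR1 on the opposite strand and was at 4.62 ± 0.238 and 4.56 ± 0.806 CPM, far below ESR1. The antisense gene AL356311.1, inside ESR1, had 3 to 8 counts in controls and 2 to 4 after exposure, and AL078582.1, also inside ESR1, had 0. ARMT1 (-0.78 ± 0.09) and FBXO5 (-0.57 ± 0.14) were lower, MTHFD1L and ZBTB2 higher, and the small nuclear RNA pseudogene RNU6-813P had 30 to 50 counts in controls and 5 to 12 after exposure.

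Within 1 Mb of PGR 20 genes lie and 10 were tested, none higher and 4 lower, with a median log2 fold change of -0.31. Of all tested genes 22.1% passed as lower. The number lower near PGR was 2 in DESeq2 and 2 without any 1 library but exposed replicate 1, which is about that share. TRPC6, a calcium channel 321.0 kb from PGR, had 56 to 68 counts in controls and 4 to 17 after exposure, a log2 fold change of -2.54 ± 0.39 (edgeR quasi-likelihood adjusted p = 3.3e-06). PGR-AS1 overlaps the start of PGR on the opposite strand and had 31, 29 and 32 counts in controls and 17, 9 and 16 after exposure (-1.03 ± 0.42, adjusted p = 0.044). Its call ended in DESeq2 (adjusted p = 0.11) and with any library left out (adjusted p of 0.056 to 0.16). Without a stated strand setting reads of PGR-AS1 and PGR cannot be assigned where they overlap. YAP1, near the window's edge, was at -0.35 ± 0.08, and CFAP300 at -0.49 ± 0.19 (adjusted p = 0.037) lost its call without any library but exposed replicate 1 (0.051 to 0.14). ARHGAP42, the nearest tested coding gene downstream at 35.7 kb, was at 0.54 ± 0.33 and did not pass.

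**Figure D5:**
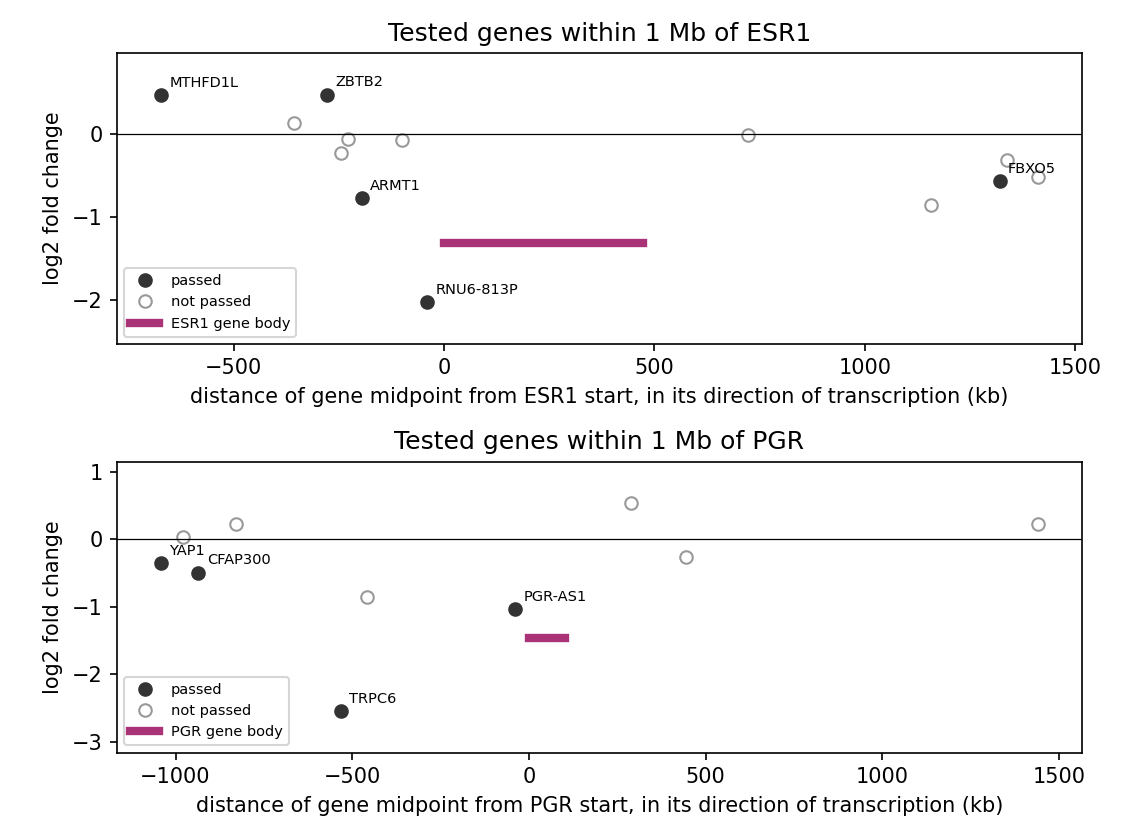
Log2 fold change (exposed against control) of each tested gene within 1 Mb of ESR1 or PGR, against the distance of its midpoint from the receptor's start in the receptor's direction of transcription (kb); filled points passed the edgeR test and the bar is the receptor's own gene body. Genes that did not pass lie on both sides of ESR1 and PGR, and TRPC6 at -2.54 is the lowest point around PGR.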

How the data were processed

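The authors deposited whole-number read counts per gene for 6 libraries. The submitters' processing notes name the build GRCh38. No aligner, counter, annotation release or strand setting is named in them, so reads of overlapping genes cannot be assigned. All 58735 gene IDs had the same coordinates in GENCODE 29, and the deposited gene length in bases, another column per the file headers, equalled the summed exons there in all of them.

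Sample titles gave the groups and replicate numbers. Counts were tested with edgeR 4.0.16 in R 4.3.3: 17337 genes were left by filterByExpr at a minimum count of 10 and a minimum total of 15, libraries were scaled by TMM, and the robust quasi-likelihood fit held the 2 groups. Passing means an adjusted p (Benjamini-Hochberg, over all tested genes) below 0.05. Every adjusted p is from this fit unless another tool or setting is named, such as a library left out or the test against a 1.5-fold change. SEs of fold changes were derived from the F statistic (absolute log2 value over its root). CPM and RPKM use TMM-scaled library sizes, and errors are SD over 3 libraries. The script was tested on simulated data.

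The members and lists were chosen with earlier results of these data known. Some genes of the lists are not reported here, and list counts and medians leave them out. Named genes are ESR1, PGR, the 4 called members of a list that had the lowest adjusted p, a set of genes given whatever their result, the 5 nearest in pattern, and neighbours that overlap, lie nearest or were called. HSD17B1, MED1, DDX17, HSPB8, TPD52L1, WNT4, EGFR, CYP19A1, the levels of ESRRA, ESRRB and ESRRG, and the ranks among transcription factors and of control replicate 2 were added after values were seen. Upstream windows and gene starts are from RefSeq on GRCh38.p14. The alternatives tried were DESeq2-type size factors, other low-count filters, DESeq2 1.42.0, limma-voom (limma 3.58.1), a replicate block, leaving out each library, a length correction, protein-coding genes alone, no mitochondrial genes and a test against a 1.5-fold change.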

Additional observations from a re-analysis of the deposited data

How the results depend on the processing

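The falls of ESR1 and PGR kept their direction and passed under all 16 alternatives: log2 fold changes ran from -1.37 to -1.23 for ESR1 and from -1.54 to -1.37 for PGR, with adjusted p of at most 8.8e-10 and 9.0e-11. Leaving out single libraries gave -1.37 to -1.26 and -1.54 to -1.40, and the correction for gene length -1.23 and -1.37. The PGR to ESR1 log2 ratio was lower in all alternatives, -0.18 to -0.12 with a library left out. Same-numbered libraries did not deviate together (correlations of -0.07, -0.08 and 0.01), and libraries of unlike number gave -0.05 to 0.12. Pairing by number thus left no visible mark, which does not exclude that replicates were handled as pairs. With the replicate block ESR1 was at -1.31, PGR at -1.45, the log2 ratio at -0.14 (exact sign-flip p = 0.25, the smallest for 3 pairs) and 6779 genes were called. The block gave 1 lower coactivator and 2 lower genes near PGR.

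Against a 1.5-fold change 1498 genes passed, 715 higher and 783 lower, in place of 7610, 3778 and 3832. In that test the lists kept, as higher and lower, 1 and 13 estrogen-induced genes, 6 and 1 progestin-induced genes, 3 and 1 genes of estrogen supply, 2 and 0 AhR genes, 1 and 0 relatives of ESR1 and PGR, 0 and 0 coactivators, 0 and 1 corepressors, 1 and 0 factors tied to ESR1, 0 and 1 chaperones, 0 and 0 membrane receptors, 0 and 1 genes near ESR1 and 0 and 1 genes near PGR; a stricter test passes fewer genes by construction. DESeq2 called 4 higher chaperones, 1 lower membrane receptor and 2 lower genes near PGR, and the cause was not tested. With 1 library left out, counts ran from 1 to 2 for higher relatives of ESR1 and PGR and lower membrane receptors, 1 to 3 for lower coactivators, 3 to 5 for lower progestin-induced genes and 2 to 3 for lower genes near PGR. CCDC170 ran from -0.17 to 0.023 with a library left out, the last without control replicate 3. SYNE1 was at 0.17 with the length correction and ran from -0.14 to 0.11 with a library left out, at 0.025, 0.11 and 0.00091 without control replicate 1, exposed replicate 2 or exposed replicate 3.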
